A study of Mus musculus with 12 samples.

Results

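The bile acid and organic anion transporters of the liver were described as 10 genes, chosen by symbol out of the 14822 genes of the deposited table. Of these, 5 carry solutes from blood into the hepatocyte (Slc10a1, Slco1a1, Slco1a4, Slco1b2 and Slco2b1). Another 3 export into bile across the canalicular membrane (Abcb11, Abcc2 and Abcb4), and 2 export back towards blood across the basolateral membrane (Abcc3 and Abcc4). The 12 RNA libraries, 4 per group, are from the livers of C57BL6/J mice. One group received a chow diet and saline vehicle, another a diet that induces metabolic dysfunction-associated steatohepatitis (MASH, fatty liver with inflammation and scarring) and vehicle, and the last the MASH diet and the hormone FGF21, dosed daily at 1 mg per kg; treatment lasted 4 weeks. The labels give no sex, and do not say that libraries within a group are different animals, so p-values may measure technical spread alone.

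Bile acids are made from cholesterol in hepatocytes, secreted into bile, and returned from the gut in portal blood. Uptake at the basolateral membrane and export at the canalicular membrane move them across the cell, while the basolateral exporters offer a route back to blood. In mouse and human liver, nuclear receptors that sense bile acids and foreign compounds, and the oxidative stress factor encoded by Nfe2l2, are known to control many of these transporter genes.

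The deposited values are TPM, transcript abundances corrected for length and scaled to a total of 1000000, and so allow levels to be set beside each other between genes. The libraries fell short of that total by 110 to 158 TPM in 9 cases, and FGF21 replicates 1, 3 and 4 by 7968, 8206 and 1217 TPM. TPM keeps no read depth, so the depth behind each value is unknown. Hepatocyte markers were abundant, with the 7 listed genes summing to 51914 to 63649 TPM in chow, 51777 to 57834 TPM in MASH vehicle and 63356 to 72962 TPM in FGF21 livers, and none was at 0. The 9 cholangiocyte markers summed to 39.8 to 56.0, 40.2 to 88.0 and 43.1 to 44.9 TPM in the same order, with Cftr at 0 throughout. The 6 recruited macrophage markers summed to 20.6 to 27.1, 82.4 to 128 and 41.1 to 62.0 TPM, and the 6 resident Kupffer cell markers to 61.3 to 78.0, 199 to 272 and 173 to 324 TPM. Markers of sinusoidal endothelium summed to 101.1 to 119, 150.0 to 204 and 166 to 243 TPM, and those of stellate cells to 51.5 to 68.9, 100.8 to 148 and 93.6 to 129 TPM. The part of these shifts in the transporter results was not tested, and in whole tissue fewer hepatocytes and less RNA per hepatocyte cannot be told apart.

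On build GRCm38 (mm10), Slc10a1 lies at chr12:80953183-80968705 on the minus strand. Slco1b2 (chr6:141629518-141686646, plus strand), Slco1a4 (chr6:141805440-141856199, minus) and Slco1a1 (chr6:141907282-141946962, minus) are near neighbours on chromosome 6, and Slco2b1 is at chr7:99657804-99711340 on the minus strand. The canalicular exporters are Abcb11 at chr2:69238282-69342616 (minus), Abcc2 at chr19:43782192-43840740 (plus) and Abcb4 at chr5:8893717-8959231 (plus). The basolateral exporters are Abcc3 at chr11:94343295-94392997 (minus) and Abcc4 at chr14:118482692-118706219 (minus). All 10 are annotated as protein-coding. Close relatives could share reads, since 5.03% of the 31-base words of Slco1a4 transcripts, 4.74% of those of Abcb4 and 4.0% of those of Slco1a1 also occur in other genes, among them Slco1a5 and Slco1a6 for the Slco1a pair and Abcb1a and Abcb1b for Abcb4. These shares are not the error of a level, and how far shared reads moved the levels of these 3 genes was not tested.

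RefSeq promoter windows of the same assembly (GRCm38.p6) were matched for 9 of the 10 transporters, and the window of the first listed start is shown for the 7 of them that were called with the diet. Each is the 250 bases before that start, read 5′ to 3′ on the gene's own strand. Capitals mark matches, on either strand, to AGGTCA, the hexamer that many nuclear receptors recognise, or to TGACNNNGC, the core of the antioxidant response element bound by the factor that Nfe2l2 encodes.
Slc10a1, chr12:80968706-80968955, minus strand: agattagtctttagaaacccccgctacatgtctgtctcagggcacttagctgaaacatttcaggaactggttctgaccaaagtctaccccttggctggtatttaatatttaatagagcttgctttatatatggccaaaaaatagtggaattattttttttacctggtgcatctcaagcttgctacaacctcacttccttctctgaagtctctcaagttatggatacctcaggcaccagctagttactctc
Slco1a1, chr6:141946963-141947212, minus strand: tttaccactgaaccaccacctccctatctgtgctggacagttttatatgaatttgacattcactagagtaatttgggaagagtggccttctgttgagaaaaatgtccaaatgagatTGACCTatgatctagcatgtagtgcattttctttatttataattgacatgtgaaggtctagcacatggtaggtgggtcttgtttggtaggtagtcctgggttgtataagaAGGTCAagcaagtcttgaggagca
Slco1a4, chr6:141856221-141856470, minus strand: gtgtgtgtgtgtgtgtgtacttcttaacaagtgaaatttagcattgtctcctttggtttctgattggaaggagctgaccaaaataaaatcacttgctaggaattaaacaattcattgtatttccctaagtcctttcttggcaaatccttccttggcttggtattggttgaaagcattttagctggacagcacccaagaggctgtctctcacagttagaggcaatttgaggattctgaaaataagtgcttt
Slco1b2, chr6:141629268-141629517, plus strand: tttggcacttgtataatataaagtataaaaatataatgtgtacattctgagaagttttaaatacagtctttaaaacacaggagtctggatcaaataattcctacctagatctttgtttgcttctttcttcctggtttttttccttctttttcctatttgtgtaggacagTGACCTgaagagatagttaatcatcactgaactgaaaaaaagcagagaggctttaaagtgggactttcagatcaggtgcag
Abcb11, chr2:69342617-69342866, minus strand: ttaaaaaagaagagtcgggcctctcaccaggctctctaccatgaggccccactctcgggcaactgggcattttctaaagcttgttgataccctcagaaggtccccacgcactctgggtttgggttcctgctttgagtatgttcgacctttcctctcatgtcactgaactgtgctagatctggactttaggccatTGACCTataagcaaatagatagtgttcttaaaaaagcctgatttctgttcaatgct
Abcb4, chr5:8893471-8893720, plus strand: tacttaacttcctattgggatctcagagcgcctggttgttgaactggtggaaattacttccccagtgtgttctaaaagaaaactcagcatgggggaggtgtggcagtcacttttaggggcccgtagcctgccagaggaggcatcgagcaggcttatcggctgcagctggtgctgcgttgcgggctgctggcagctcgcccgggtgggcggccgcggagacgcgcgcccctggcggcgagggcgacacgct
Abcc4, chr14:118706220-118706469, minus strand: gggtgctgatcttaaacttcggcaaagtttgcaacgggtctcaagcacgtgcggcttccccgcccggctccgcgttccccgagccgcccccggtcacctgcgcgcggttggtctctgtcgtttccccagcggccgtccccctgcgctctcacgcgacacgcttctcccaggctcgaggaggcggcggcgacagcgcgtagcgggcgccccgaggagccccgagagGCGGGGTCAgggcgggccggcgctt

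The hexamer stood in 5 of the 13 windows of the 9 transporters (Slc10a1, at a second annotated start that is not shown, Slco1a1, Slco1b2, Abcb11 and Abcc2), and 14.0% of all 32851 windows hold it. In Slco1a1 it occurred at a pair of places. Its inverted repeat with a single base between, which contains the hexamer on both strands, occurred in 0 windows of the transporters and in 0.00609% of all windows. The windows shown of Slc10a1, Slco1a4 and Abcb4 hold no match. The core of the antioxidant response element stood in 3 of the 13 windows, those of Abcc2 and Abcc4, and in 10.2% of all windows, and its first letters can overlap the reverse of the hexamer. These are descriptions of letters, and binding was not measured.

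Slc10a1, which encodes the sodium-dependent carrier of conjugated bile acids, was the most abundant of the 10 in chow livers. It was read at 436, 571, 468 and 456 TPM in chow replicates 1 to 4, at 278, 220.3, 288 and 219 TPM in MASH vehicle livers, and at 410.3, 309.8, 300.7 and 389 TPM in FGF21 livers. The 3 groups did not overlap, with every FGF21 library above every MASH vehicle library and below every chow library. Slco1b2, the rodent counterpart of the OATP1B uptake carriers of human liver, was read at 294, 557, 269 and 243 TPM in chow, at 176, 156, 188 and 137 TPM in MASH vehicle, and at 299.9, 131, 147 and 129 TPM in FGF21 livers. Chow replicate 2 and FGF21 replicate 1 stood well above the rest of their groups, MASH vehicle lay below all of chow, and the other 3 FGF21 libraries lay within or below the range of MASH vehicle.

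Slco1a1, a broad organic anion carrier that is higher in male than in female mouse liver, was read at 106.5, 55.0, 99.2 and 90.0 TPM in chow, at 41.8, 48.3, 61.6 and 29.9 TPM in MASH vehicle, and at 92.1, 45.0, 51.2 and 53.1 TPM in FGF21 livers. Chow replicate 2 was the low chow library, and it alone made chow overlap MASH vehicle. Slco1a4, a related carrier that also takes up digoxin, was read at 6.7, 17.0, 6.8 and 6.4 TPM in chow, at 1.8, 1.2, 2.4 and 1.5 TPM in MASH vehicle, and at 5.4, 0.9, 1.6 and 1.3 TPM in FGF21 livers. All chow libraries were above all others, and chow replicate 2 and FGF21 replicate 1 were again the high ones of their groups. Slco2b1, a carrier of steroid sulphates and drugs that is found in many tissues, ranged from 109 to 125 TPM in chow, from 100.9 to 115 TPM in MASH vehicle and from 97.7 to 157 TPM in FGF21 livers, so its groups overlapped.

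Abcb11 encodes the bile salt export pump of the canalicular membrane. It was read at 127, 121, 126 and 94.0 TPM in chow, at 97.8, 93.4, 81.9 and 65.5 TPM in MASH vehicle, and at 79.6, 80.9, 68.2 and 70.7 TPM in FGF21 livers. Chow overlapped MASH vehicle by its replicate 4, while all FGF21 libraries were below all chow libraries. Abcc2, the canalicular exporter of bilirubin glucuronides and glutathione conjugates, ranged from 72.0 to 95.1 TPM in chow, from 55.2 to 72.3 TPM in MASH vehicle and from 53.5 to 93.4 TPM in FGF21 livers, where replicate 1 held the high value and the other 3 were at most 55.8 TPM. Abcb4, the flippase that brings phosphatidylcholine into bile, was read at 51.8, 73.4, 66.2 and 58.8 TPM in chow, at 92.9, 104, 98.5 and 87.9 TPM in MASH vehicle, and at 94.0, 83.3, 63.3 and 63.8 TPM in FGF21 livers. Its MASH vehicle libraries were all above chow, and the FGF21 libraries spread across both.

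Abcc3, the basolateral exporter of glucuronides and bile acids, was read at 110.3, 159.7, 138 and 166 TPM in chow, at 244, 274, 267 and 275 TPM in MASH vehicle, and at 206, 335, 216 and 359 TPM in FGF21 livers. Every library on the MASH diet was above every chow library, and the FGF21 libraries lay on both sides of MASH vehicle. Abcc4, a basolateral exporter that moves bile acids together with glutathione, was read at 0.3, 0.4, 0.4 and 0.3 TPM in chow, at 1.4, 1.8, 1.1 and 1.3 TPM in MASH vehicle, and at 0.7, 0.6, 0.5 and 0.7 TPM in FGF21 livers. The 3 groups did not overlap, but values were deposited to 1 decimal, so each step is coarse at this level.

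**Figure D1:**
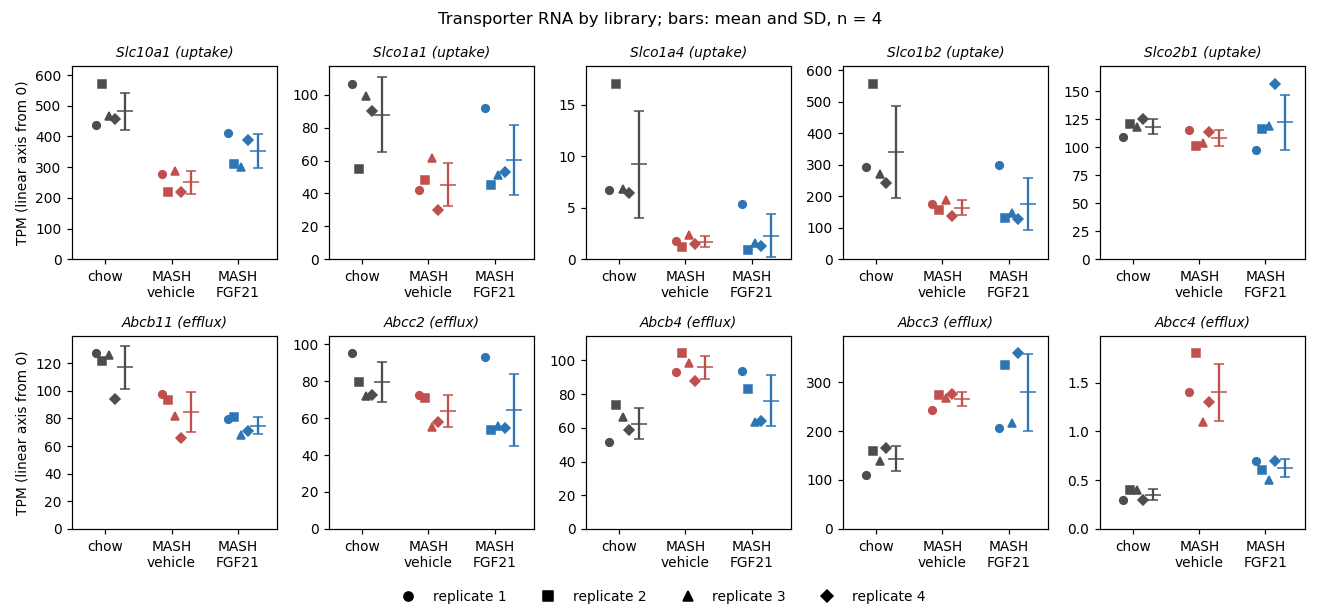
TPM of each of the 10 transporters (vertical axis, from 0) in chow, MASH vehicle and FGF21 livers (horizontal axis), with 1 point per library, its shape showing the replicate number, and a bar with whiskers for the mean and SD of 4 libraries. Slc10a1 is lowest in MASH vehicle and intermediate with FGF21, Abcc3 is higher in both groups on the MASH diet, and chow replicate 2 and FGF21 replicate 1 stand out in Slco1b2 and Slco1a4.

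In chow livers the order of mean levels was Slc10a1 (483 ± 60.4 TPM, SD, n = 4), Slco1b2 (341 ± 145 TPM), Abcc3 (143 ± 25.2 TPM), Slco2b1 (118 ± 6.68 TPM), Abcb11 (117 ± 15.6 TPM), Slco1a1 (87.7 ± 22.8 TPM), Abcc2 (79.8 ± 10.8 TPM), Abcb4 (62.6 ± 9.32 TPM), Slco1a4 (9.23 ± 5.19 TPM) and Abcc4 (0.35 ± 0.0577 TPM). Slc10a1 and Slco1b2 overlapped in range, as did each neighbouring pair from Abcc3 down to Abcb4, whereas Slco1b2 and Abcc3 were apart, as were Abcb4, Slco1a4 and Abcc4. In MASH vehicle livers Abcc3 (265 ± 14.5 TPM) stood beside Slc10a1 (251 ± 36.8 TPM), with overlapping ranges, and in FGF21 livers the 2 genes again overlapped, at 279 ± 79.0 and 352 ± 55.3 TPM.

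To ask what the MASH diet changed, MASH vehicle livers were compared with chow livers. Of the 10 transporters, 5 fell (Slc10a1, Slco1a1, Slco1a4, Slco1b2 and Abcb11) and 3 rose (Abcb4, Abcc3 and Abcc4) in limma's moderated test at an adjusted p under 0.05, that is 4 of 5 uptake carriers down, none up, and 3 of 5 exporters up, 1 down. Of all 10988 genes tested, 37.3% were called, 29.5% higher and 7.84% lower. Abcc4 reached the filter of 1 TPM in 4 libraries through MASH vehicle alone and so had to be highest there. Without it, 7 of 9 were called, and 2 of 4 exporters rose and 1 fell. The median log2 fold change was -0.94 for the 5 uptake carriers and 0.15 for the 4 exporters other than Abcc4, beside 0.19 over all genes tested. The ranges of the groups did not overlap for 3 transporters that were lower (Slc10a1, Slco1a4 and Slco1b2) and 3 that were higher (Abcb4, Abcc3 and, by the filter, Abcc4), where 9.52% and 33.1% of all genes tested, 42.6% in all, were without overlap in those directions.

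Slc10a1 fell by 0.94 ± 0.14 on the log2(TPM + 1) scale (SE, limma, adjusted p = 0.00024), a mean level 1.92 times as high in chow, and it kept this call under all 27 alternatives of scaling, filter and library. Slco1a4 fell by 1.81 ± 0.35 (limma, adjusted p = 0.00174), Slco1b2 by 0.97 ± 0.28 (adjusted p = 0.0164) and Slco1a1 by 0.94 ± 0.26 (adjusted p = 0.0142). Without MASH vehicle replicate 4 the adjusted p of Slco1b2 was 0.0506. Slco2b1 changed by -0.13 ± 0.13 (limma, adjusted p = 0.433), but its value was -0.36 (adjusted p = 0.0494) with median-of-ratios scaling.

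Among the canalicular exporters, Abcb11 fell by 0.47 ± 0.14 (limma, adjusted p = 0.0187) and Abcb4 rose by 0.62 ± 0.15 (adjusted p = 0.00548). The call of Abcb11 was lost without chow replicate 1 (adjusted p = 0.0551), without chow replicate 3 (0.0517) and without MASH vehicle replicate 4 (0.0621). Abcc2 changed by -0.31 ± 0.17 (limma, adjusted p = 0.165), and passed without FGF21 replicate 1, which enters through the shared estimate of spread (adjusted p = 0.0478), and with median-of-ratios scaling (-0.54, adjusted p = 0.0294). Quantile normalization took the call of Abcb4 away (0.42, limma, adjusted p = 0.0536). At the basolateral membrane, Abcc3 rose by 0.90 ± 0.18 (limma, adjusted p = 0.00226), a mean level 1.85 times that of chow, under all 27 alternatives. The mean of Abcc4 was 0.35 TPM in chow and 1.40 TPM in MASH vehicle, a fitted difference of 0.82 ± 0.10, with no p given since the filter fixed its direction.

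FGF21 livers were then compared with MASH vehicle livers, which asks what the hormone changed on the same diet. Of the 10 transporters, 1 rose (Slc10a1) and 1 fell (Abcc4), where 10.3% of all genes tested were called, 6.02% higher and 4.28% lower. Since the filter fixed the direction of Abcc4 here too, the count without it is 1 of 9, which is close to the share over all genes. Slc10a1 rose by 0.48 ± 0.14 (limma, adjusted p = 0.042), with a mean 1.40 times that of MASH vehicle and no overlap of the groups. This call was lost in 13 of 27 alternatives, at adjusted p from 0.0501 to 0.117, while its direction was the same in all of them. The libraries without which it was lost were chow replicates 1 (adjusted p = 0.0501), 3 (0.0592) and 4 (0.0528), MASH vehicle replicates 1 (0.0616), 2 (0.109) and 4 (0.117), and FGF21 replicates 1 (0.0572), 2 (0.0555) and 4 (0.096).

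The mean of Abcc4 was 1.40 TPM in MASH vehicle and 0.625 TPM in FGF21 livers, a fitted difference of -0.56 ± 0.10, and again no p is given. Of the other 8 transporters, Abcb4 had the largest fitted difference among the exporters, -0.35 ± 0.15 (limma, adjusted p = 0.147), and it passed only without FGF21 replicate 1, alone or together with chow replicate 2 (-0.45, adjusted p = 0.0342 and 0.0284). Slco1b2 differed by 0.01 ± 0.28 (limma, adjusted p = 0.981) and Slco1a4 by 0.12 ± 0.35 (adjusted p = 0.867), and both turned negative without FGF21 replicate 1, at -0.27 and -0.26 (adjusted p = 0.397 and 0.508). Abcc3 differed by 0.03 ± 0.18 (limma, adjusted p = 0.939), Abcb11 by -0.16 ± 0.14 (adjusted p = 0.497) and Slco1a1 by 0.39 ± 0.26 (adjusted p = 0.376). Of the 9 transporters other than Abcc4, Slc10a1 was the 1 whose groups did not overlap, where 7.47% of all genes tested were higher and 6.63% lower without overlap, 14.1% in all.

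The FGF21 livers were also set beside chow. This comparison shares its libraries with both others, so its values are given beside them and are no separate evidence. Of the 10 transporters, 4 were lower (Slc10a1, Slco1a4, Slco1b2 and Abcb11) and 2 higher (Abcc3 and Abcc4), or 5 of 9 without Abcc4, where 52.0% of all genes tested were called, 37.8% higher and 14.2% lower. Slc10a1 was lower by -0.46 ± 0.14 (limma, adjusted p = 0.015), beside -0.94 in MASH vehicle livers, and the call was lost without chow replicate 2 (-0.38, adjusted p = 0.0511). Slco1a4 differed by -1.70 ± 0.35 (limma, adjusted p = 0.00213) and Slco1b2 by -0.96 ± 0.28 (adjusted p = 0.0128). Abcb11 differed by -0.63 ± 0.14 (limma, adjusted p = 0.00287) and Abcc3 by 0.93 ± 0.18 (adjusted p = 0.00149), and both held under all 27 alternatives.

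Slco1a1 differed from chow by -0.55 ± 0.26 (limma, adjusted p = 0.0946), and passed without chow replicate 2 (-0.75, adjusted p = 0.0309) and without FGF21 replicate 1 (-0.77, adjusted p = 0.0144). Abcc2 differed by -0.34 ± 0.17 (limma, adjusted p = 0.116), and passed without FGF21 replicate 1 (-0.53, adjusted p = 0.00361). Abcb4 differed by 0.27 ± 0.15 (limma, adjusted p = 0.13) and Slco2b1 by 0.03 ± 0.13 (adjusted p = 0.866). Abcc4 differed by 0.27 ± 0.10 (limma, adjusted p = 0.0391), a call lost in 16 of 22 alternatives, among them those without chow replicate 1 (adjusted p = 0.0884), 2 (0.0555), 3 (0.0557) or 4 (0.0786) and without FGF21 replicate 1 (0.0707), 2 (0.0699) or 4 (0.086). Groups did not overlap for 3 lower (Slc10a1, Slco1a4 and Abcb11) and 2 higher transporters (Abcc3 and Abcc4), beside 5.99% and 30.5% of all genes tested, 36.5% in all.

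**Figure D2:**
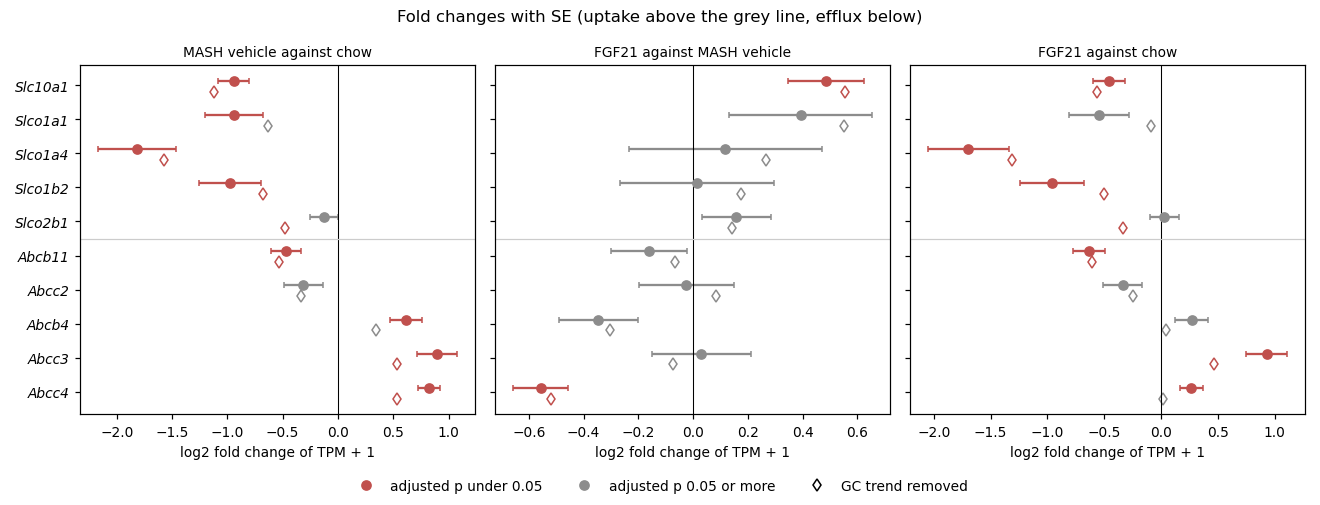
Fitted log2 fold changes on the log2(TPM + 1) scale (horizontal axis) of the 10 transporters in the 3 comparisons, as circles with whiskers of 1 SE from limma, and open diamonds for values with the GC trend removed. Red marks an adjusted p under 0.05 and grey one of 0.05 or more, and a grey line divides uptake (above) from efflux (below). The range of the horizontal axis differs between panels. With the diet, the red circles of 4 uptake carriers and Abcb11 lie to the left and those of Abcb4, Abcc3 and Abcc4 to the right, and with FGF21 against MASH vehicle the red circles are Slc10a1 and Abcc4, the direction of Abcc4 in both of these panels being fixed by the filter.

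Summed over the 5 uptake carriers, the level was 1039 ± 189 TPM in chow, 571 ± 68.0 TPM in MASH vehicle and 714 ± 139 TPM in FGF21 livers (SD, n = 4), with no p-value since the members were chosen with results known. The 5 exporters summed to 403 ± 22.0, 511 ± 24.0 and 495 ± 70.6 TPM. On the TPM scale all MASH vehicle libraries lay below all chow libraries for uptake and above them for efflux. The size factors of median-of-ratios scaling were 0.864 to 0.921 in chow and 1.02 to 1.08 in MASH vehicle. Dividing by them narrows the difference in efflux, and the groups then overlap for efflux. MASH vehicle replicate 4 (efflux sum 487.6 TPM, size factor 1.069) then falls below chow replicate 2 (434.4 TPM, size factor 0.909). The ratio of uptake to efflux was 2.48, 3.04, 2.39 and 2.35 in chow replicates 1 to 4, 1.21, 0.968, 1.28 and 1.03 in MASH vehicle, and 1.91, 1.09, 1.53 and 1.33 in FGF21 livers. All libraries on the MASH diet were below all chow libraries, and the FGF21 libraries overlapped MASH vehicle.

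The exporters to bile and to blood differed in this. The canalicular sum was 259 ± 23.2 TPM in chow, 245 ± 26.4 TPM in MASH vehicle and 215 ± 37.2 TPM in FGF21 livers, with overlapping ranges. The ratio of uptake to canalicular efflux was 4.01 ± 0.598 in chow, 2.35 ± 0.315 in MASH vehicle and 3.33 ± 0.444 in FGF21 livers, where the FGF21 libraries (2.77 to 3.85) lay above all MASH vehicle libraries (1.96 to 2.73) and overlapped chow (3.48 to 4.82). The canalicular sum includes the phosphatidylcholine flippase Abcb4, with means of 62.6, 95.9 and 76.1 TPM in chow, MASH vehicle and FGF21 livers. Without Abcb4 in the ratio, the groups did not stay apart. MASH vehicle replicate 3 (uptake sum 643.9, Abcb11 81.9, Abcc2 55.2 TPM) then had a higher ratio than FGF21 replicate 2 (603.1, 80.9 and 53.5 TPM). The same library was also above chow replicate 1 (952.8, 127.1 and 95.1 TPM). The basolateral sum was 144 ± 25.2, 267 ± 14.6 and 280 ± 79.0 TPM, nearly all of it Abcc3. Abcc3 made up 35.5 ± 5.69% of the summed exporter level in chow, 52.0 ± 3.61% in MASH vehicle and 55.7 ± 9.50% in FGF21 livers. Slc10a1 relative to Abcc3 was 3.42 ± 0.505 in chow, 0.953 ± 0.180 in MASH vehicle and 1.35 ± 0.470 in FGF21 livers. Its share of the uptake sum stayed within 41.8% to 53.4% over the 12 libraries.

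**Figure D3:**
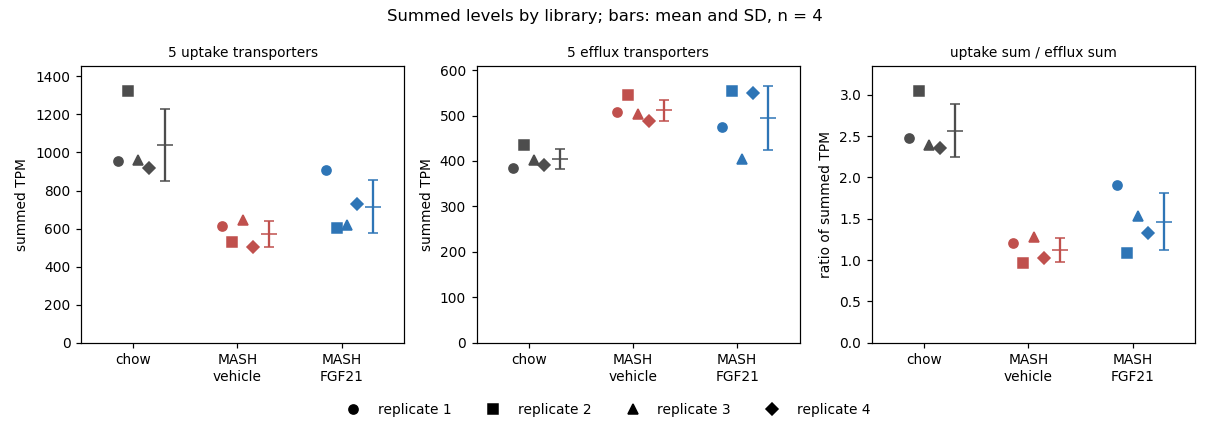
Summed TPM of the 5 uptake carriers and of the 5 exporters and the ratio of both sums (vertical axes, from 0) by group, with 1 point per library (shape: replicate number) and a bar with whiskers for mean and SD. Chow libraries have ratios of 2.35 to 3.04, MASH vehicle libraries of 0.968 to 1.28 and FGF21 libraries of 1.09 to 1.91.

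Single libraries moved several transporters at once. Chow replicate 2 held the highest chow value of Slc10a1, Slco1a4, Slco1b2 and Abcb4 and the lowest of Slco1a1. FGF21 replicate 1 held the highest FGF21 value of all uptake carriers other than Slco2b1, of Abcc2, and of Abcb4, and the lowest of Slco2b1 and Abcc3. These libraries also stood apart in sex-biased genes, with a mean log2 level of 18 male-biased genes of -0.81 in chow replicate 2 and -1.06 in FGF21 replicate 1 relative to the chow mean. The remaining chow libraries were at 0.14 to 0.43 and the remaining FGF21 libraries at -0.49 to -0.28. The same measure over 7 female-biased genes was 1.16 and 2.05 in these libraries, beside -0.49 to -0.18 and 0.72 to 1.30 in the others of their groups. Y-linked transcripts were present in all 12 libraries, Ddx3y at 3.8 to 14.8 TPM and Eif2s3y at 11.3 to 38.3 TPM, named after their values were seen. The part of either library's profile in the transporter results was not tested.

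Transcript GC content moved with the fold changes over all genes and differed between transporters. Over 10810 genes the Spearman correlation of the log2 fold change with GC content was 0.413 for the diet, 0.387 for the hormone on the MASH diet and 0.607 for FGF21 livers set beside chow. This is across genes, which are not independent. The low-GC transporters were Slco1a1 (38.5%), Slco1b2 (38.6%) and Slco1a4 (40.3%), and Abcc3 had the highest GC content (54.2%). With the GC trend removed, Slc10a1 (-1.12, limma, adjusted p = 0.000111), Slco1b2 (-0.68, adjusted p = 0.0132) and Abcc3 (0.53, adjusted p = 0.0186) were still called with the diet. Slco1a1 (-0.64, limma, adjusted p = 0.0808) and Abcb4 (0.34, adjusted p = 0.106) were not, and Slco2b1 was called lower (-0.48, adjusted p = 0.00382). Slc10a1 was called in FGF21 against MASH vehicle in that setting too (0.55, limma, adjusted p = 0.0254). In FGF21 against chow, Slco1b2 (-0.50, limma, adjusted p = 0.0454) and Abcc3 (0.46, adjusted p = 0.0331) were called, Abcc4 was not (0.01, adjusted p = 0.919), and Slco2b1 turned to -0.34 (adjusted p = 0.0238).

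**Figure D4:**
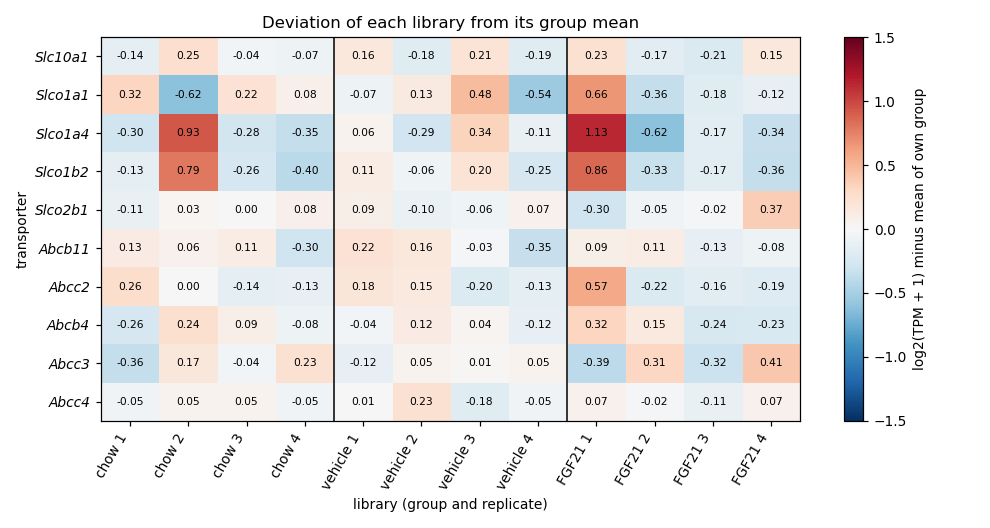
Deviation of each library from the mean of its group, as log2(TPM + 1) (colour, and number in each cell), for the 10 transporters (rows) and 12 libraries (columns). Chow replicate 2 and FGF21 replicate 1 are high for Slco1b2 and Slco1a4, and FGF21 replicate 1 is high for Abcc2.

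Other transporters of liver, 20 of 29 listed genes being tested, rose with the diet in 7 cases and fell in 3, with a median log2 fold change of 0.30. Of all genes tested, 29.5% rose and 7.84% fell with the diet, with a median of 0.19. In FGF21 against MASH vehicle these shares were 6.02% and 4.28%, and against chow 37.8% and 14.2%. They are the background for the counts of every gene list from here on. Abcg5 and Abcg8, which together export sterols into bile, rose from 38.6 ± 6.18 to 91.9 ± 12.4 TPM and from 100.4 ± 16.5 to 215 ± 20.3 TPM (limma, adjusted p = 0.00015 and 0.000341). Slc22a7, an organic anion carrier, fell from 83.4 ± 21.5 to 22.7 ± 4.03 TPM (limma, adjusted p = 0.00163). Slco2a1, the prostaglandin carrier, fell from 32.5 ± 3.52 to 14.4 ± 4.68 TPM (limma, adjusted p = 0.000746) and was 30.5 ± 5.57 TPM with FGF21, a rise against MASH vehicle (adjusted p = 0.00689). With FGF21, 3 of the list rose and 3 fell against MASH vehicle, among them Abcg2, an exporter of sulphated and other conjugates, which fell by 0.56 ± 0.13 (limma, adjusted p = 0.0176). Abcg2 levels were 43.3 ± 0.466, 72.5 ± 11.1 and 48.9 ± 7.02 TPM in chow, MASH vehicle and FGF21 livers. Against chow, 9 of the list were higher and 4 lower in FGF21 livers.

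Of the receptors and regulators of these transporters, 24 of 26 were tested, and 6 rose and 2 fell with the diet. Among those that rose, Nr2f1 was at most 0.6 TPM in chow and reached the filter through libraries on the MASH diet alone. The filter thus favoured its rise. The shares over all genes tested were 29.5% and 7.84%. Nr1h4, the bile acid receptor FXR, was read at 51.7 ± 5.28, 46.7 ± 3.07 and 42.7 ± 4.74 TPM in chow, MASH vehicle and FGF21 livers, and Nr0b2, its target repressor SHP, at 47.9 ± 31.1, 65.5 ± 14.3 and 46.1 ± 17.3 TPM, and neither was called in any comparison. Fgfr4, the hepatocyte receptor for the gut hormone that restrains bile acid synthesis, fell from 48.5 ± 4.94 to 32.2 ± 2.47 TPM with the diet (limma, adjusted p = 0.00226) and was 54.9 ± 6.99 TPM with FGF21, a rise against MASH vehicle (adjusted p = 0.00259). Rxra, the partner of many nuclear receptors, rose by 0.74 ± 0.18 with FGF21 (limma, adjusted p = 0.0196). In that comparison 6 of the list rose and 0 fell, and in FGF21 against chow 13 were higher and 1 lower. Nfe2l2 rose with the diet by 0.46 ± 0.12 (limma, adjusted p = 0.0103).

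Listed targets of the factor that Nfe2l2 encodes rose with the diet in 12 of 16 cases and fell in 0, and with FGF21 against MASH vehicle 0 rose and 9 fell, with medians of 0.80 and -0.70. Over all genes tested, 29.5% rose and 7.84% fell with the diet, and 6.02% and 4.28% with FGF21 against MASH vehicle. Srxn1 and Hmox1, antioxidant enzymes, rose by 1.72 ± 0.17 and 1.35 ± 0.15 with the diet (limma, adjusted p = 1.46e-05 and 2.91e-05). Gstm3 and Gsta1 are glutathione transferases with close relatives that may share reads. With FGF21, Gstm3 fell by 2.96 ± 0.27 (limma, adjusted p = 0.000115) and Gsta1 fell by 3.16 ± 0.30 (adjusted p = 0.000115). Of the transporters, Abcb4 and Abcc4 had their highest group mean in MASH vehicle, that of Abcc4 by the filter, while the mean of Abcc3 was 265 TPM in MASH vehicle and 279 TPM in FGF21 livers. In FGF21 against chow, 6 of this list were higher and 5 lower.

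Listed targets of the foreign-compound receptors CAR and PXR fell with the diet in 7 of 14 cases and rose in 1. Over all genes tested, 7.84% fell and 29.5% rose. Cyp2c29 went from 824 ± 169 to 318 ± 95.6 TPM (limma, adjusted p = 0.000694), and Cyp2c37 fell by 0.89 ± 0.15 (adjusted p = 0.000694) and rose by 1.03 ± 0.15 with FGF21 (adjusted p = 0.00179). With FGF21 against MASH vehicle 1 of that list rose and 2 fell, and against chow 3 were higher and 7 lower. Listed FXR targets other than the transporters rose in 2 and fell in 1 of 9 cases with the diet. In FGF21 against MASH vehicle 1 rose (Cyp8b1) and 1 fell (Apoc2), and against chow 1 was higher and 2 lower. The list of FXR targets is not divided by the direction in which FXR acts on each gene, so these counts are no measure of FXR activity. Cyp8b1 is also counted among the synthesis enzymes below.

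Of 17 tested enzymes of bile acid synthesis, 4 rose and 5 fell with the diet, where 29.5% and 7.84% of all genes tested did. Akr1d1 and Cyp7b1 fell by 1.74 ± 0.21 and 1.25 ± 0.16 (limma, adjusted p = 6.01e-05 and 8.95e-05). With FGF21 against MASH vehicle 2 rose and 0 fell, namely Cyp8b1, which directs synthesis to cholic acid, by 0.68 ± 0.13 (limma, adjusted p = 0.00814), and Hsd3b7 by 0.38 ± 0.08 (adjusted p = 0.014). Against chow 8 were higher and 5 lower.

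Markers of liver zones and of other hepatocyte programmes gave the following counts. Over all genes tested, 29.5% rose and 7.84% fell with the diet, and 6.02% and 4.28% with FGF21 against MASH vehicle. Periportal genes fell with the diet in 9 of 15 cases and rose in 1, and pericentral genes fell in 2 of 15 and rose in 1. Male-biased genes fell in 7 of 18 and rose in 2, and female-biased genes rose in 2 of 7 and fell in 0. Listed targets of the fatty acid receptor PPAR alpha rose in 14 of 15 and fell in 0. Hepatocyte markers fell in 3 of 7 and rose in 0 with the diet. In FGF21 against MASH vehicle, counts higher and lower were 0 and 1 for periportal, 1 and 0 for pericentral, 0 and 4 for male-biased, 0 and 0 for female-biased, 0 and 3 for PPAR alpha and 1 and 0 for hepatocyte genes. In the same comparison 4 of 5 recruited macrophage markers fell, where all 5 had risen with the diet. Of these, Gpnmb and Itgax, named after their values were seen, were at most 0.1 and 0.2 TPM in chow. They needed MASH vehicle libraries to reach the filter of 1 TPM in 4 libraries. The filter thus favoured their rise with the diet and any fall with FGF21, as for Abcc4. Trem2, also named after its values were seen, was at most 0.8 TPM in chow. It too needed libraries on the MASH diet to reach the filter, which favoured its rise. Whether this holds for other low genes of the lists was not tested.

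The genes nearest in pattern to each transporter were found over all 12 libraries as the smallest Euclidean distance between z-scored log2(TPM + 1) values. For Slc10a1 these were Il1rap, Cyp2c54 and Clec2d, and for Slco1a1 Hao1, Mup3 and Trmt5. Slco1a4 was nearest to Zfc3h1, Zmym5 and Olfr769, and Slco1b2 to Sos1 (distance 0.401), Bag4 and Ube2g1. Slco2b1 was nearest to Slc37a4, Crcp and Papss2, Abcb11 to Epb41l5, Atpaf1 and Sco1, Abcc2 to Prep, Zfp967 and Cct6a, and Abcb4 to Cd44, Gng12 and Cdc42bpa. Abcc3 was nearest to Vwa8 (distance 0.563), Ankrd27 and Trio, and Abcc4 to Lpar1 (distance 0.804) and Tlr2. The GC content of the 3 genes nearest to Slco1b2 was 40.9% to 44.0%, and that of the 3 nearest to Abcc3 was 50.9% to 53.3%.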

How the data were processed

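The authors deposited a table of values per gene and library whose names call them FPKM and normalized counts. The columns sum to just under 1000000, so these deposited values are taken here as TPM, and the test planned for a generic value was applied to TPM. Per the submitters' processing notes, Trim Galore 6.10, Salmon 1.10.2 and mm10 were used, and per the labels' protocols RNA came from a Qiagen RNeasy kit with oligo-dT enrichment; annotation and gene filter were not given in the sources used here. All columns were matched to samples by library name, and 0 were left unmatched. The 10988 genes that reached 1 TPM in 4 or more libraries were tested with limma 3.58.1 (R 4.3.3), fitted to log2(TPM + 1) of all 12 libraries with trend and robust options, two-sided, with Benjamini-Hochberg adjustment over all genes tested and a threshold of 0.05. Fold changes on this scale understate those of low genes. The pipeline was tested on simulated data. The transporters, the 17 other gene lists and the tests were chosen with earlier results of these data known. All transporters are named; of other lists, counts, and by name the 2 genes with the smallest p per comparison, or any other transporter or regulator; some genes that this rule would name are not reported here. Coordinates and GC content came from GENCODE M21 on GRCm38, and promoters from RefSeq. Alternatives were other pseudocounts, filters, scalings and fits, a GC correction, a replicate block, and leaving out libraries.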

Additional observations from a re-analysis of the deposited data

Results flagged for a closer look

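In 6 of 39 groups of 4 libraries checked (10 transporters and the sums and ratios, in 3 groups each), 1 library lay so far from the others that its gap to the nearest exceeded Dixon's 95% critical share of the range. Chance alone flags about 1 in 20 groups, and the groups share libraries and genes. For Slco1a4, chow replicate 2 was at 17.0 TPM against 6.4 to 6.8 TPM in the other chow libraries, and FGF21 replicate 1 at 5.4 TPM against 0.9 to 1.6 TPM. For Slco1b2, chow replicate 2 was at 556.7 TPM against 243 to 294 TPM, and FGF21 replicate 1 at 299.9 TPM against 129 to 147 TPM. For Abcc2, FGF21 replicate 1 was at 93.4 TPM against 53.5 to 55.8 TPM. The uptake sum of chow replicate 2 was 1320.8 TPM against 920.7 to 962 TPM.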

How the results depend on the processing

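Of 795 transporter fold changes under alternatives, 703 kept direction and side of the threshold, and 30 reversed. The settings without chow replicate 2 and FGF21 replicate 1 together, and with GC correction plus replicate block, were chosen after seeing the data. Leaving out 1 library gave mean log2 ratios of summed uptake to efflux of 1.27 to 1.39 in chow livers. They were 0.087 to 0.22 in MASH vehicle and 0.384 to 0.653 in FGF21 livers. Median-of-ratios scaling cannot change a ratio within a library, and the ratio was not recomputed with the GC trend removed. The cause of the moves was not tested. Over all genes the median log2 fold change moved from 0.19 and 0.20 against chow to -0.01 and 0.02 with median-of-ratios scaling, and the share of calls that were higher moved with the diet from 79% to 44.6% (median-of-ratios), 45.9% (quantile), 64.8% (Mup and mitochondrial genes left out) and 51.5% (GC), with FGF21 against chow from 72.7% to 48.8%, 49%, 60.1% and 48.4%, and with FGF21 against MASH vehicle from 58.5% to 43.2% (GC).

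With the diet, genes called higher and lower (3242 and 861) became 1592 and 1980 with median-of-ratios scaling, 1683 and 1986 with quantile normalization, 1464 and 1381 after GC correction and 1597 and 1515 with GC and block, and 1355 were lower with array weights. Leaving out 1 library gave 2317 to 3739 higher, 487 to 1195 lower and 5 to 9 transporters called; the 5 came without MASH vehicle replicate 4. In FGF21 against MASH vehicle (662 and 470; 2 transporters), 1 transporter was called with no filter, with a filter of 5 TPM (which does not test Abcc4), with quantile normalization, without Mup and mitochondrial genes and with only the groups compared. Counts were 348 and 283 with only the groups compared, 1415 and 1054 with array weights, 1767 and 1221 without FGF21 replicates 1 and 3, 1251 and 1115 without chow replicate 2 and FGF21 replicate 1, 433 higher with GC and 723 lower with GC and block; leaving out 1 library gave 285 to 1274, 228 to 943 and 0 to 2 transporters. In FGF21 against chow (4153 and 1560; 6 transporters), counts were 1030 lower with the filter of 5 TPM, 2551 and 2680 with median-of-ratios, 2528 and 2628 with quantile, 1622 higher with GC and 1828 higher with GC and block; leaving out 1 library gave 3362 to 4446, 950 to 2028 and 5 to 7 transporters.

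Signs turned for fold changes that were not called. In FGF21 against MASH vehicle, Slco1b2 (0.01) was -0.043 with quantile normalization, -0.21 with array weights, -0.33 without FGF21 replicates 1 and 3 and -0.27 without chow replicate 2 and FGF21 replicate 1, and Slco1a4 (0.12) was -0.23, -0.36 and -0.26 in the last 3. Abcc2 (-0.03) was 0.083 and Abcc3 (0.03) was -0.073 with GC, with and without the block. In FGF21 against chow, Slco2b1 (0.03) was -0.19 with median-of-ratios, -0.16 with quantile, -0.11 without Mup and mitochondrial genes and -0.34 with GC, with and without the block. Leaving out 1 library gave -0.27 to 0.13 for Slco1b2, -0.26 to 0.33 for Slco1a4, -0.22 to 0.048 for Abcc2 and -0.11 to 0.16 for Abcc3 against MASH vehicle, and -0.10 to 0.13 for Slco2b1 against chow.

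Whether replicate numbers mark a shared block is not stated by the labels and could not be settled here. The numbers in the library names also differ from the replicate numbers in part. Same-numbered libraries had correlations of deviations from -0.176 to 0.405, 7 of 12 over 0.1. In MASH vehicle with FGF21 6 of 8 libraries correlated best with their own number, beside 4 of 8 in chow with MASH vehicle and 3 of 8 in chow with FGF21. With the replicate block, 8, 2 and 7 transporters were called, the added one being Abcc2 in FGF21 against chow (-0.34, limma, adjusted p = 0.0318), and 3630 and 1058, 958 and 635, and 4389 and 1722 genes were higher and lower. Depth is unknown, and Abcc4 rests on values of 0.3 to 1.8 TPM with 1 decimal.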
